A study of Rattus norvegicus with 9 samples.

Results

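Chemokines are small secreted proteins that recruit leukocytes, and the 10 described here (Ccl2, Ccl3, Ccl4, Ccl5, Ccl7, Cxcl1, Cxcl2, Cxcl9, Cxcl10 and Cx3cl1) were followed in rat liver 24 h after total-body irradiation. They were chosen by name, with earlier results of these data known. Found through their RefSeq transcripts on a whole-genome microarray, they make up 10 of the 13438 genes that could be named on it. The livers came from male Wistar rats in 3 groups of 3, with 1 array per rat. Control rats received neither radiation nor drug. TBI rats received 6.5 Gy from a 60Co source at 2 Gy/min. HSC+TBI rats received the same exposure after 3 days of Hong Shan Capsule (HSC), a preparation of crude medicinal herbs given into the stomach in double distilled water. The sample labels give its dose as 30 mg/kg per day and the series' own design text as 10 g/kg per day, and this difference was not resolved. Drug alone was not among the groups analysed here, so a change in HSC+TBI livers cannot be divided into an effect of the drug and an effect of the drug after radiation.

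Chemokines bind receptors on leukocytes and direct them along a concentration gradient. Ccl2 and Ccl7 act on the receptor Ccr2 and draw monocytes out of the blood, Ccl3, Ccl4 and Ccl5 attract macrophages, T cells and natural killer (NK) cells, Cxcl1 and Cxcl2 act on Cxcr2 on neutrophils, and Cxcl9 and Cxcl10 act on Cxcr3 on activated T and NK cells. Cx3cl1, or fractalkine, is made as a membrane protein that is cut free by proteases and binds Cx3cr1. In the liver, Kupffer cells (the resident macrophages), endothelial cells, hepatocytes and stellate cells can all produce chemokines. Nuclear factor kappa B drives many of these genes, and interferon-activated factors drive Cxcl9 and Cxcl10.

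Most of these genes lie in clusters, and in the RefSeq order of protein-coding genes Ccl2 was next to Ccl7 and Ccl3 next to Ccl4 on chromosome 10, and Cxcl1 next to Cxcl2 and Cxcl9 next to Cxcl10 on chromosome 14. The 250 bases before the start of a gene were held in the RefSeq promoter table for 6 of the 10 genes. They are printed here for both chromosome 14 pairs, because 1 gene of each pair was called in a comparison described further on and its neighbour was not; the difference between neighbours was not tested. Each sequence runs 5′ to 3′ on the strand of the gene, with coordinates of the build GRCr8, and capitals mark matches on either strand to the consensus kappa B motif or to the core of the interferon-stimulated response element, GAAANNGAA.
Cxcl1, chr14:17479322-17479571, minus strand: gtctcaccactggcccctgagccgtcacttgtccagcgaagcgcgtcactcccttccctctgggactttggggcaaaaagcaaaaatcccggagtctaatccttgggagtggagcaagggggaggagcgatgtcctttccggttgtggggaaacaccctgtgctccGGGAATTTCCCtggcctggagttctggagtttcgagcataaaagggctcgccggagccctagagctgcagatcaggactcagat
Cxcl2, chr14:17467256-17467505, minus strand: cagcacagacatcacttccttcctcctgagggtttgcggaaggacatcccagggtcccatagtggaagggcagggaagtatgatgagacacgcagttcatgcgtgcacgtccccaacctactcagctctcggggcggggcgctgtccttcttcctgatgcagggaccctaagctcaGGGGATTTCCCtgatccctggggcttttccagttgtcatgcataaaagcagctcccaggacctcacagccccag
Cxcl9, chr14:16006916-16007165, plus strand: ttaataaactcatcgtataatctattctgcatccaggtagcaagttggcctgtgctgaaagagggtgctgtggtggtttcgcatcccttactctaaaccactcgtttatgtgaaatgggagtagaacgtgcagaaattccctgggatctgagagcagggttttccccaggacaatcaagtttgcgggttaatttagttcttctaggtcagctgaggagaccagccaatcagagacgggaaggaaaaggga
Cxcl10, chr14:15988816-15989065, plus strand: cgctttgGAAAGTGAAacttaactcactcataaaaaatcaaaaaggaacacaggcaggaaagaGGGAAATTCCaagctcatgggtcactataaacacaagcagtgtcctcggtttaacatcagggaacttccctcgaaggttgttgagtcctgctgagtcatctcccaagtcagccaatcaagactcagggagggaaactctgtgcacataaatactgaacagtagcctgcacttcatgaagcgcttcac
The kappa B motif was matched in Cxcl1, Cxcl2 and Cxcl10, and in 3.54% of all 33469 promoters over the same 250 bases. In Cxcl1 and in Cxcl2 the capitals hold 2 matches that overlap each other, whereas Cxcl10 holds 1 kappa B match and, nearer its 5′ end, 1 match to the interferon element. The interferon letters were present in 8.12% of all promoters. The Cxcl9, Ccl7 and Cx3cl1 windows held neither set of letters. A match is a description of the letters and no evidence that a factor was bound.

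Signals are given as log2 of the background-subtracted fluorescence of a gene's probe after quantile normalization, so that 1 unit is a 2-fold difference, and levels are compared between livers for 1 probe but never between probes. All 10 genes passed the filter on dim probes, which asked for a signal well above background in every liver of 1 or more groups, and Ccl7 passed it through the TBI arrays alone. A gene was called higher or lower when limma's adjusted p was under 0.05 and the difference was at least 1.5-fold. Control arrays had 56.6% to 59.3% of their probes well above background, TBI arrays 63.6% to 69.5% and HSC+TBI arrays 58.7% to 60.5%. All control arrays were on 1 slide and all TBI arrays on another, and the HSC+TBI arrays were on 2 further slides, so slide and group cannot be told apart. In whole liver RNA, fewer cells of a type and less RNA per cell cannot be told apart either.

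Against control, 5 of the 10 chemokines were lower in HSC+TBI liver (Ccl2, Ccl3, Ccl4, Ccl7 and Cxcl10), beside 2.05% of all tested probes. In TBI liver a single one was called, Cxcl2, which was higher than control, as were 3.54% of all tested probes. The HSC+TBI mean was the lowest of the 3 group means for 9 of the 10 genes, compared with 22% of all 25369 tested probes, and Cxcl2 was the exception. In 7 of the 10 genes the means ran downwards from control through TBI to HSC+TBI, which 11.7% of tested probes did. The signal differed among the 3 groups by limma's F-test in 6 genes, namely the 5 above and Cxcl2, at adjusted p values from 0.00310 to 0.0449, beside 6.89% of all tested probes.

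**Figure D1:**
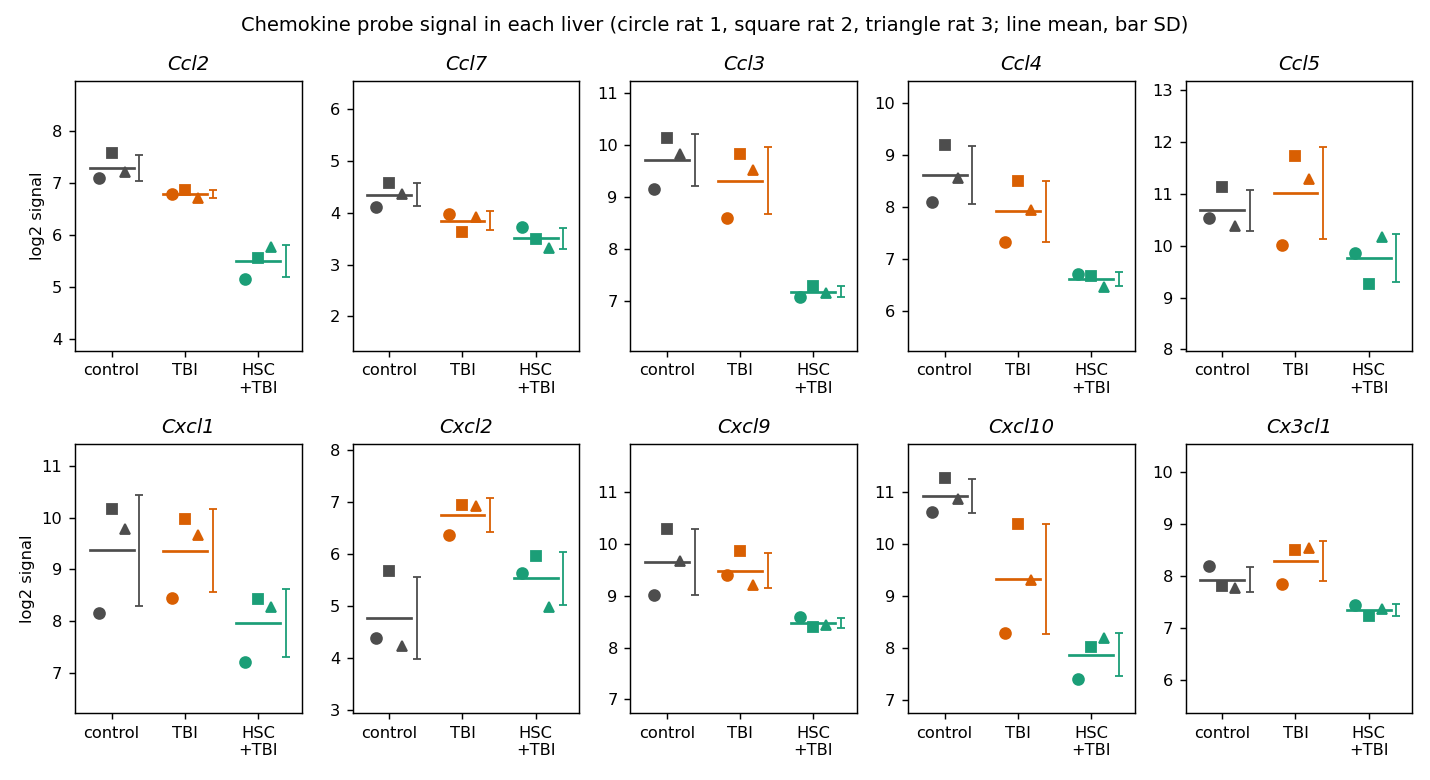
Log2 signal of the probe for each of the 10 chemokines (vertical axis, each panel spanning the same number of log2 units) in control, TBI and HSC+TBI livers, 3 rats per group. Symbols mark rats 1, 2 and 3, horizontal lines the group means and bars the SD. The HSC+TBI values of Ccl2, Ccl3, Ccl4, Cxcl9, Cxcl10 and Cx3cl1 lie below every control and every TBI value, and Ccl7 was not well above background on any HSC+TBI array.

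The monocyte chemokines Ccl2 and Ccl7 had their lowest means in HSC+TBI liver. Ccl2 signal was 7.10, 7.57 and 7.21 in the 3 control livers, 6.78, 6.86 and 6.72 in the TBI livers, and 5.16, 5.55 and 5.77 in the HSC+TBI livers. The 3 groups did not overlap, and the TBI livers stood between the others. HSC+TBI was 3.48-fold lower than control (log2 difference -1.80, 95% interval -2.22 to -1.38, limma adjusted p = 0.00194) and 2.45-fold lower than TBI (-1.29, -1.71 to -0.88, adjusted p = 0.0270). The TBI livers were lower than control by a difference that did not pass the test (-0.51, -0.92 to -0.09, adjusted p = 0.130). Ccl7 signal was 4.12, 4.57 and 4.36 in control, 3.99, 3.63 and 3.92 in TBI and 3.72, 3.49 and 3.32 in HSC+TBI livers. It was well above background on 2 of 3 control arrays, on 3 of 3 TBI arrays and on 0 of 3 HSC+TBI arrays, so the HSC+TBI level is a bound. With HSC+TBI set at that bound, Ccl7 was 1.63-fold lower than control, where not every array was well above background either. The call was made on the difference without the bound (-0.84, limma adjusted p = 0.0346). Normexp background correction with an offset, an alternative that compresses dim probes by its construction, reduced the Ccl7 difference from control to -0.11 and ended its call (adjusted p = 0.246). It reduced the Ccl2 difference from control to -0.79, which was still called, and that from TBI to -0.53, which was not (adjusted p = 0.0822). The Ccl7 difference from TBI, -0.34 (-0.72 to 0.04, adjusted p = 0.367), did not pass. A second Ccl7 probe was well above background on 2 TBI arrays and on none of the others, and was not tested.

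Ccl3 and Ccl4, both products of activated macrophages, followed each other closely. Ccl3 signal was 9.15, 10.13 and 9.83 in control, 8.58, 9.83 and 9.51 in TBI and 7.07, 7.28 and 7.15 in HSC+TBI livers. Control and TBI livers overlapped, and the 3 HSC+TBI livers lay below both with an SD of 0.10, against 0.50 in control and 0.65 in TBI. Ccl3 was 5.80-fold lower in HSC+TBI than in control liver (log2 difference -2.54, -3.31 to -1.77, adjusted p = 0.00647) and 4.42-fold lower than in TBI liver (-2.14, -2.91 to -1.37, adjusted p = 0.0404). Its difference between TBI and control was -0.39 (-1.17 to 0.38, adjusted p = 0.502). Normexp correction reduced the difference from TBI to -1.42 and ended that call (adjusted p = 0.0935).

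Ccl4 signal was 8.09, 9.19 and 8.57 in control, 7.32, 8.50 and 7.93 in TBI and 6.70, 6.66 and 6.46 in HSC+TBI livers. The order of the rats within control and within TBI was that seen for Ccl3, and again no HSC+TBI liver reached the range of either other group. Ccl4 was 4.01-fold lower than control in HSC+TBI liver (-2.01, -2.77 to -1.24, adjusted p = 0.0174). The difference from TBI was -1.31 (-2.07 to -0.54) and did not pass after adjustment (adjusted p = 0.122). Over the 9 livers, Ccl3 and Ccl4 gave the highest Pearson r of the 45 pairs of these chemokines, 0.97.

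Ccl5, which T and NK cells also make, had no call in any comparison. Its signal was 10.53, 11.13 and 10.39 in control, 10.02, 11.73 and 11.28 in TBI and 9.85, 9.26 and 10.17 in HSC+TBI livers. The TBI livers were the most spread (SD 0.89), with TBI rat 1 below all controls and TBI rats 2 and 3 above them. The Ccl5 difference TBI minus control was 0.32 (-0.67 to 1.31, adjusted p = 0.680), HSC+TBI minus control -0.92 (-1.91 to 0.06, adjusted p = 0.284) and HSC+TBI minus TBI -1.25 (-2.24 to -0.26, adjusted p = 0.211).

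The neutrophil chemokines Cxcl1 and Cxcl2, neighbours in the genome, had a Pearson r of 0.25 over the 9 livers. Cxcl2 signal was 4.39, 5.67 and 4.23 in control, 6.37, 6.95 and 6.93 in TBI and 5.64, 5.97 and 4.98 in HSC+TBI livers. Every TBI liver exceeded every control and every HSC+TBI liver, and control rat 2 stood above the other controls. Cxcl2 was 3.97-fold higher in TBI than in control liver (log2 difference 1.99, 1.07 to 2.90, adjusted p = 0.0214). In HSC+TBI liver the difference from control was 0.77 (-0.15 to 1.68, adjusted p = 0.335) and that from TBI -1.22 (-2.14 to -0.30, adjusted p = 0.194), so the lower HSC+TBI level did not pass the direct test. Normexp correction kept the call but reduced the TBI difference to 0.63.

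Cxcl1 signal was 8.15, 10.17 and 9.78 in control, 8.46, 9.98 and 9.66 in TBI and 7.21, 8.43 and 8.27 in HSC+TBI livers. In each group rat 1 was the lowest, by more than a log2 unit, which made Cxcl1 the most variable of the 10 genes within control (SD 1.07). The means were 9.37 in control and 9.36 in TBI, and the interval of their difference was wide (-1.36 to 1.35, adjusted p = 0.999). HSC+TBI was lower than control by -1.40 (-2.75 to -0.04, adjusted p = 0.242) and lower than TBI by -1.39 (-2.75 to -0.04, adjusted p = 0.294), and neither difference was called.

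The Cxcr3 ligands Cxcl9 and Cxcl10, both interferon-inducible, were lowest in HSC+TBI liver. Cxcl10 signal was 10.63, 11.27 and 10.88 in control, 8.28, 10.39 and 9.31 in TBI and 7.40, 8.02 and 8.19 in HSC+TBI livers. The 3 groups did not overlap, and TBI rat 1 lay within 0.1 log2 units of HSC+TBI rat 3. Cxcl10 had the largest difference from control of these chemokines, 8.34-fold lower in HSC+TBI (-3.06, -4.14 to -1.98, adjusted p = 0.0124). The TBI livers, 3.03-fold below control, missed the threshold (-1.60, -2.68 to -0.52, adjusted p = 0.0766), as did HSC+TBI against TBI (-1.46, -2.54 to -0.38, adjusted p = 0.188).

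Cxcl9 signal was 9.01, 10.29 and 9.66 in control, 9.40, 9.86 and 9.20 in TBI and 8.59, 8.39 and 8.44 in HSC+TBI livers. All HSC+TBI livers were below all others, and control and TBI overlapped. The Cxcl9 difference from control was -1.18 in HSC+TBI (-1.87 to -0.49, adjusted p = 0.0760) and -0.17 in TBI (-0.86 to 0.52, adjusted p = 0.762), and HSC+TBI minus TBI was -1.01 (-1.70 to -0.32, adjusted p = 0.165). None of these was called.

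Cx3cl1 signal was 8.20, 7.81 and 7.76 in control, 7.85, 8.50 and 8.53 in TBI and 7.45, 7.22 and 7.37 in HSC+TBI livers. The HSC+TBI livers lay below both other groups, which overlapped. HSC+TBI minus TBI was -0.95 (-1.42 to -0.48, adjusted p = 0.0862), HSC+TBI minus control -0.58 (-1.05 to -0.11, adjusted p = 0.169) and TBI minus control 0.37 (-0.10 to 0.84, adjusted p = 0.302), so no Cx3cl1 comparison was called. A second Cx3cl1 probe was well above background on all 3 TBI arrays and on 1 array of each other group, with no call. Its TBI minus control difference was -0.17, opposite in sign to that of the brighter probe. Adam17, which cuts fractalkine from the membrane, was not called either, at log2 differences of 0.16 in TBI and -0.16 in HSC+TBI from control and -0.32 between them.

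**Figure D2:**
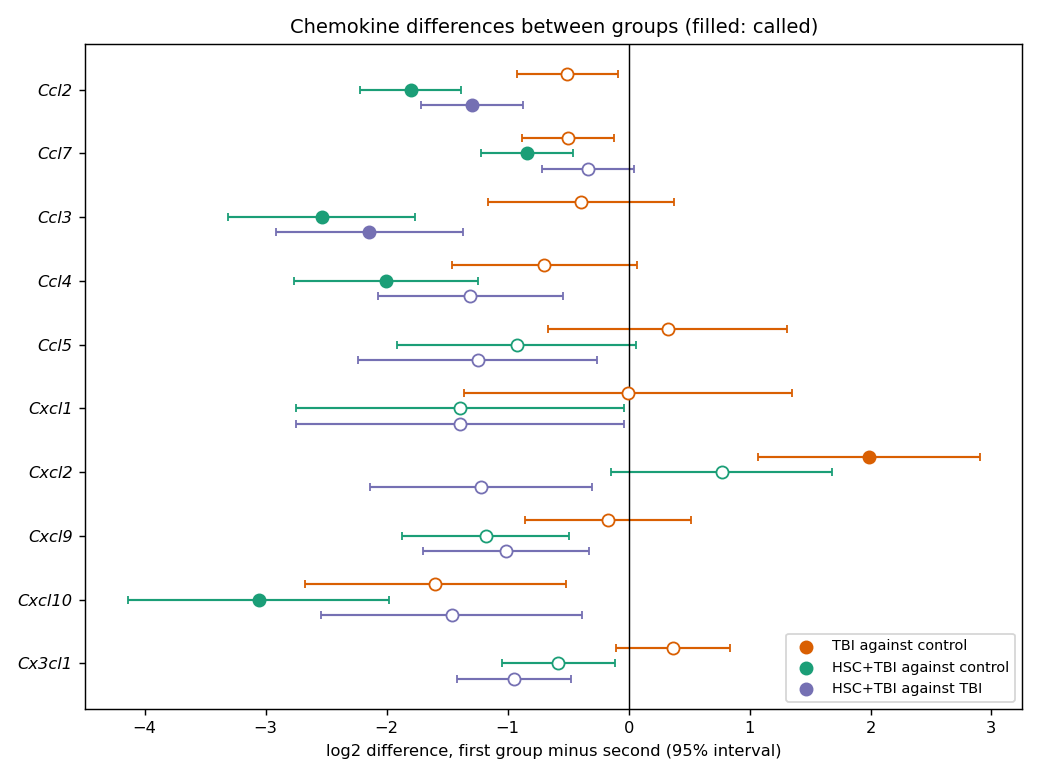
Log2 difference between group means for each chemokine, with its 95% interval from limma, in the 3 comparisons (horizontal axis, first group minus second). Filled points were called. TBI against control has Cxcl2 as its only filled point, at 1.99, HSC+TBI against control has 5, from -0.84 for Ccl7 to -3.06 for Cxcl10, and HSC+TBI against TBI has Ccl2 and Ccl3.

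Across the whole set, TBI against control had 1 of 10 chemokines called higher and 0 lower, while 3.54% of all tested probes were called higher and 3.71% lower. The median of the 10 differences was -0.28, against -0.01 for all tested probes. The TBI and control ranges did not overlap for Ccl2, Ccl7 and Cxcl10 (lower) and for Cxcl2 (higher). Among all tested probes 15.6% and 13.3% did the same in those directions. At an unadjusted p under 0.05, 4 of 10 chemokines passed, beside 25.5% of probes. The Cxcl2 call was lost when control rat 1 (adjusted p = 0.0686), control rat 3 (0.0795) or TBI rat 2 (0.0669) was left out, with differences of 1.72 to 2.44 over all left-out arrays. Cxcl10 became called without TBI rat 2 (-2.13, adjusted p = 0.0218).

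In HSC+TBI against control, 5 of 10 chemokines were lower and 0 higher, beside 2.05% and 1.19% of all tested probes. The median difference was -1.29, against 0.05 for all tested probes, and 8 of 10 genes had no HSC+TBI liver within or above the control range, beside 13.7% of probes. At an unadjusted p under 0.05, 8 of 10 passed, beside 19.6% of probes. Cxcl1 and Cxcl2 were the genes that overlapped. Ccl2 and Ccl3 were called whichever array was left out. Ccl4 (adjusted p 0.0556 to 0.0690) and Ccl7 (0.0668 to 0.119) lost their calls without control rat 2, control rat 3 or any 1 HSC+TBI rat, at differences of -2.05 to -1.72 for Ccl4 and -0.94 to -0.73 for Ccl7. Cxcl10 lost its call without control rat 2, control rat 3 or HSC+TBI rat 1 (0.0543 to 0.0589, differences of -3.09 to -2.83), and Cxcl9 gained one without control rat 1 (-1.50, 0.0208).

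In the direct comparison of the irradiated groups, HSC+TBI against TBI, 2 of 10 chemokines were called, Ccl2 and Ccl3, both lower, and 0 higher, while 0.564% of all tested probes were called lower and 0.233% higher. All 10 differences were below 0 (median -1.27, against 0.06 for all probes), and 8 of 10 genes had non-overlapping ranges, beside 8.74% of probes. At an unadjusted p under 0.05, 9 of 10 genes passed, beside 16.3% of probes. This comparison shares its HSC+TBI arrays with the comparison against control, so the agreement between their lists is not a second observation. The direct calls depended on single arrays. Ccl2 lost its call without control rat 3, TBI rat 2, HSC+TBI rat 1 or HSC+TBI rat 2 (adjusted p 0.0516 to 0.0917), and Ccl3 without control rat 2, control rat 3, TBI rat 2 or any 1 HSC+TBI rat (0.0531 to 0.138). The Ccl2 difference stayed between -1.33 and -1.13 and the Ccl3 difference between -2.20 and -1.88 in these cases. Without TBI rat 1, 6 chemokines were called lower than in TBI liver, with Ccl4 (-1.61), Ccl5 (-1.74), Cxcl10 (-1.99) and Cx3cl1 (-1.17) joining Ccl2 and Ccl3. Calls in either direction over all tested probes rose as well, from 202 (0.796%) to 948 (3.74%). Both calls were also lost under some other processing settings, given at the end.

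Many of these genes were high or low together in the same liver. With 1 array per rat, rat and array cannot be told apart. TBI rat 1 was the lowest TBI liver for 7 of 10 chemokines, which it was for 26.7% of tested probes. Control rat 2 was the highest control for 9 of 10 (31% of probes), and control rat 1 the lowest for 7 of 10 (30.4% of probes). Over the 9 livers the 45 pairs of chemokines had Pearson r from -0.28 to 0.97, with a median of 0.75. The 4 pairs below 0 all included Cxcl2, with Ccl7, Cxcl10, Ccl2 and Ccl4. These values share the group differences and the arrays, and are given as a description.

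Outside the 10, the genes whose signal ran most like each chemokine were ranked by Pearson r over the 9 livers, as a description. Ccl3 was closest to Slc2a6 (r = 0.98), Ly6c (0.98) and Plac8 (0.97), and Ccl4 to Plac8 (0.99), Gimap4 (0.98) and Pik3cd (0.98). Ccl5 was closest to Klri2, a receptor of NK cells (0.97), the granzyme Gzmk (0.97) and Ptprr (0.96). Cxcl1 was closest to Fyn (0.97), the complement gene C1qa (0.97) and the myeloid transcription factor Spi1 (0.96), and Cxcl9 to Ms4a6bl1 (0.96), Slc2a6 (0.96) and the complement receptor C3ar1 (0.95). Cxcl10 was closest to Mcpt8l2 (0.99), Myo1g (0.98) and Slc8b1 (0.98), and Ccl2 to Txnip (0.96), the mast cell protease Cpa3 (0.96) and Nxpe3 (0.96). The nearest genes to Cxcl2 were Nrip1 (0.95), Ppp1r12a (0.94) and Gpr61 (0.94), those to Cx3cl1 were Il21r (0.97), Gp1bb (0.94) and Pla2g4a (0.92), and those to Ccl7 were Rnf216 (0.96), Tmem50a (0.96) and Rrm2 (0.95).

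Of 25 other chemokine ligands, 21 were on the array and 15 were tested. Against control, 2 of the 15 were lower in TBI and 3 in HSC+TBI liver, beside 3.71% and 2.05% of all tested probes. None was called between the irradiated groups by limma, where 4 of 15 passed an unadjusted p under 0.05, beside 16.3% of probes. Ccl12, a monocyte chemokine, was 7.95, 9.43 and 9.83 in control, 6.91, 5.61 and 6.16 in TBI and 4.60, 5.51 and 6.49 in HSC+TBI livers. It was lower in both irradiated groups, by -2.84 (adjusted p = 0.0260) and -3.53 (adjusted p = 0.0189), which themselves overlapped. Cxcl13, which attracts B cells, was also lower in both (-1.43, adjusted p = 0.0337, and -1.61, adjusted p = 0.0363). Xcl1, made by T and NK cells, was lower in HSC+TBI (-1.81, adjusted p = 0.0415) and not called in TBI (-1.26, adjusted p = 0.0828). The median difference of the 15 was -0.32 in TBI against control, -0.20 in HSC+TBI against control and -0.18 between the irradiated groups. With each array left out in turn, 0 to 4 of the 15 were called in either comparison with control and 0 to 3 in the direct one.

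The receptors of the 10 chemokines were mostly too dim in whole liver to compare. Of 23 receptor genes, 20 were on the array and 5 were tested. Ccr1, Ccr2, Ccr3 and Cxcr1 were not well above background on any array, Cxcr2 was so on 1 TBI array, Cx3cr1 on 2 TBI arrays, and Cxcr3 on 2 control and 2 TBI arrays. The atypical receptor Ccrl2 was the single receptor called. Its signal was 7.31, 8.13 and 7.75 in control, 6.90, 7.86 and 7.97 in TBI and from 5.62 to 6.51 in the 3 HSC+TBI livers. All HSC+TBI livers lay below both other groups, which overlapped. Among all tested probes, 13.7% lay below the control range there and 8.74% below the TBI range. Ccrl2 was lower in HSC+TBI than in control liver (-1.69, adjusted p = 0.0376), as were 2.05% of all tested probes. Its difference from TBI was not called (-1.54, adjusted p = 0.0936). With each array left out in turn, 0 to 1 of the 5 receptors were called in either comparison with control and 0 to 3 in the direct one.

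Of 25 genes that induce chemokines or transmit their induction, 20 were on the array and 16 were tested. In TBI liver 4 of the 16 were called higher than control, beside 3.54% of all tested probes. They were the cytokine Il1a by 0.91 (adjusted p = 0.0358), the receptor Tlr2 by 1.68 (0.0396), and the transcription factors Jun by 2.28 (0.0435) and Cebpb by 0.76 (0.0356). In HSC+TBI liver 0 were called higher. Il1a (0.68), Jun (1.51) and Cebpb (0.31) lay above the control range there too, as did 4562 of 25369 tested probes. In each irradiated group 2 of the 16 were called lower than control, beside 3.71% of all tested probes in TBI and 2.05% in HSC+TBI. The interferon-pathway factor Irf7 was among them in TBI (-2.25, adjusted p = 0.0198) and in HSC+TBI (-2.96, adjusted p = 0.0111). Between the irradiated groups no inducer was called by limma on its brightest probe. There 8 of 16 passed an unadjusted p under 0.05, beside 16.3% of all tested probes. A dimmer second probe of Nfkb2, a subunit of nuclear factor kappa B, was called lower in HSC+TBI than in TBI liver (-1.21, adjusted p = 0.0355), while the brightest Nfkb2 probe gave -0.40 (adjusted p = 0.265). With each array left out in turn, 1 to 6 of the 16 were called in TBI against control, 1 to 3 in HSC+TBI against control and 0 to 4 in the direct comparison. Il1b signal was 9.25, 9.83 and 9.56 in control, 9.73, 12.09 and 11.90 in TBI and 9.27, 9.07 and 9.13 in HSC+TBI livers, and TBI rat 1 stood with the controls. None of its differences was called (1.69 in TBI against control, adjusted p = 0.0925, and -2.08 between the irradiated groups, adjusted p = 0.126). Tnf was well above background on 2 TBI arrays and on no other, and Il6 and Ifng on no array.

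**Figure D3:**
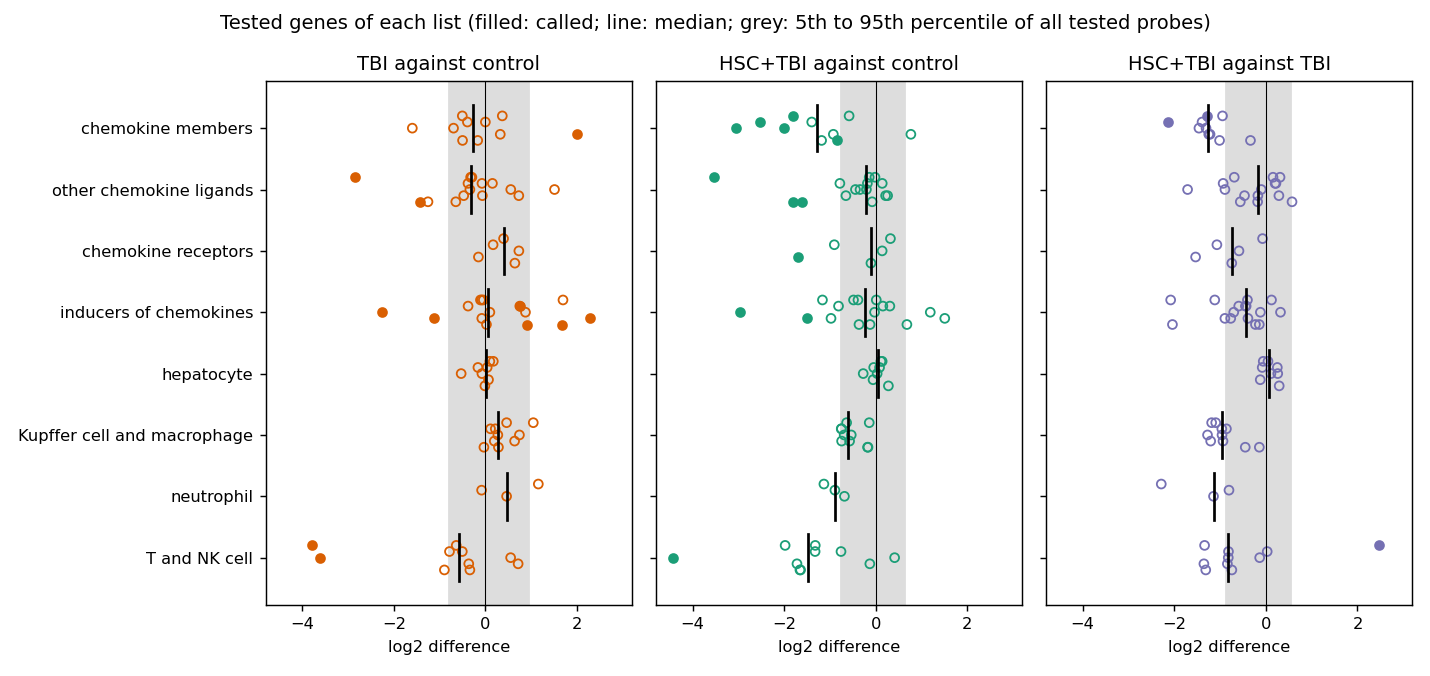
Log2 difference of each tested gene (points) in the list of 10 chemokines, in 3 related lists and in 4 lists of cell type markers, for the 3 comparisons. Filled points were called, black lines are list medians and the grey band spans the 5th to 95th percentile of all tested probes. The medians of the 10 chemokines are -0.28, -1.29 and -1.27, and those of the Kupffer cell and macrophage markers 0.28, -0.60 and -0.96.

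Markers of the cells that make or follow chemokines were measured on the same arrays. Hepatocyte markers (8 of 8 tested) had no call in any comparison and medians of 0.01, 0.06 and 0.08. Of 12 Kupffer cell and macrophage markers, 10 were on the array and tested, all well above background on every array. None was called by limma in any comparison, and 1, 5 and 9 of 10 passed an unadjusted p under 0.05 when TBI was set against control, HSC+TBI against control and the irradiated groups against each other, beside 25.5%, 19.6% and 16.3% of all tested probes. Their summed linear signal was 91159 to 142521 in control, 95710 to 178683 in TBI and 66998 to 72484 in HSC+TBI livers. By this sum, which the brightest probes dominate, every HSC+TBI liver lay below every other. Marker by marker, 6 of 10 lay below the control range in HSC+TBI liver and 8 of 10 below the TBI range, beside 13.7% and 8.74% of all tested probes. Without TBI rat 1, 8 of these 10 markers were called lower in HSC+TBI than in TBI liver, while 3.74% of all tested probes were called in either direction. Of 10 neutrophil markers 8 were on the array and 3 tested (S100a8, S100a9 and Itgam), and none was called. All 3 lay below the TBI range in HSC+TBI liver, as did 8.74% of all tested probes. Elane and Mmp8 were well above background on no array. Of 12 T and NK cell markers 10 were tested, and 8 of these lay below the control range in HSC+TBI liver, as did 13.7% of all tested probes. Against control, 2 of the 10 were called lower in TBI and 1 in HSC+TBI liver, beside 3.71% and 2.05% of all tested probes. The medians of the 10 were -0.57 and -1.48. In TBI against control 8 of the 10 differences were below 0 and the highest was 0.71, so these markers did not all fall. Cd3g and Cd2 passed the filter on dim probes through the control arrays alone. That selection favours lower values in the other groups, so their differences from control are given as a description. Cd3g was lower than control in TBI (-3.60, adjusted p = 0.000685) and at least 11.4-fold lower in HSC+TBI liver, where no array measured it well above background. Cd2 was at least 5.13-fold lower than control in TBI liver, with no TBI array well above background. It was called higher in HSC+TBI than in TBI liver, although only 1 HSC+TBI array measured it well above background. Of 6 B cell markers 2 were tested, Cd79b and Cd22. Cd79b passed the filter through the control arrays alone and was not well above background on any irradiated array. It was called lower than control in both irradiated groups, at least 4.97-fold in TBI and 2.90-fold in HSC+TBI liver. Cd22 was not called, at 0.55 in TBI and -0.14 in HSC+TBI against control. Its TBI livers all lay above the control range and its HSC+TBI livers all below it, as did 13.3% and 13.7% of all tested probes. Ptprc, carried by all leukocytes, was not called by its brightest probe (-1.29 from control and -1.08 from TBI in HSC+TBI liver), while another of its 3 probes was called lower in both (-1.28 and -1.75). Of 5 endothelial markers none was called, and of 7 stellate cell and cholangiocyte markers Lrat was lower in TBI than in control liver (-0.63, adjusted p = 0.0237). The part of cell numbers in the chemokine values was not tested.

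The values of the chemokines relative to the macrophage markers were computed as a description, by subtracting from each log2 signal the mean of the 10 markers on the same array, an alternative chosen after the data were seen. The marker mean itself was lower in HSC+TBI than in control by -0.52 and than in TBI by -0.91, without overlap. Relative to it, Ccl3 remained below TBI by -1.23 and Ccl4 by -0.40, each without overlap of the groups. The Ccl2 difference from TBI became -0.39, and its ranges overlapped, as did those of the other 7 chemokines (-0.55 to 0.57). Against control, Ccl2 (-1.28), Ccl3 (-2.02), Ccl4 (-1.49), Cxcl9 (-0.67) and Cxcl10 (-2.54) still lay below the control range in HSC+TBI liver. Cxcl2 lay above it (1.28), as it did in TBI liver (1.60). Relative to the markers, Ccl2 (-0.90), Ccl3 (-0.79), Ccl4 (-1.09), Ccl7 (-0.89) and Cxcl10 (-1.99) lay below the control range in TBI liver too. The marker mean was 0.39 higher in TBI than in control, with overlap, so the subtraction lowered every TBI difference from control by that much. Before it, Ccl3 and Ccl4 in TBI liver and Cxcl2 in HSC+TBI liver overlapped control. The share of all tested probes that separate after the same subtraction was not computed.

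**Figure D4:**
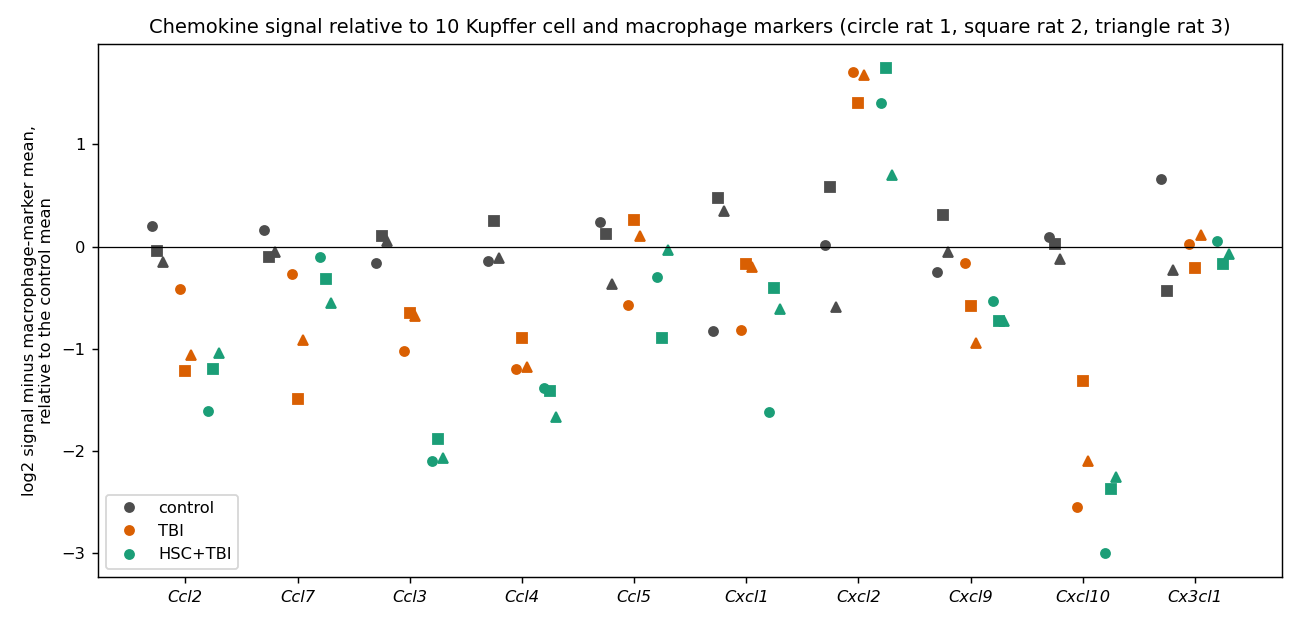
Log2 signal of each chemokine minus the mean of 10 Kupffer cell and macrophage markers on the same array, set to 0 at the control mean (vertical axis), for each rat of the 3 groups. Among the differences between HSC+TBI and TBI rats, those of Ccl3 (-1.23) and Ccl4 (-0.40) keep the groups apart, and Cxcl2 lies above control in both irradiated groups.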

How the data were processed

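Total RNA from 9 rat livers was hybridised to one-colour 4x44K arrays. Per the file headers, the authors read the scans with Agilent Feature Extraction 10.7.3.1, which gave a background-subtracted intensity per spot. They also deposited log2 values after quantile normalization, which served as an alternative. Here, control spots and spots flagged as outliers were left out, log2 processed intensities were quantile normalized and averaged per probe, and a probe was tested if it was well above background (over 0.5 of its spots) on all 3 arrays of at least 1 group (25369 of 41012 probes). No spot was saturated. limma 3.58.1 in R 4.3.3 fitted the 3 group means in 1 model over all 9 arrays. Benjamini-Hochberg adjustment ran over all tested probes, and a call needed an adjusted p under 0.05 and a 1.5-fold difference. The model was tested on simulated data. The smallest p that exact permutation of 3 against 3 rats allows is 0.1 (two-sided), so none was used, and the number of arrays limits the precision. Groups came from the sample labels. Probes were named through RefSeq transcripts (16968 probes), and a gene with several probes is shown by its brightest tested probe. All 10 chemokines are named. Of the other lists, the genes called at least once are named, with the receptors of the 10 and the 3 genes most like each chemokine. Il1b, Tnf, Il6, Ifng, Adam17, Elane, Mmp8, S100a8, S100a9, Itgam and Cd22 were chosen after their values were seen. Some genes that this rule names are not reported here. The chemokines and the lists were chosen with earlier results of these data known. The files name the rat build rn4, and promoter sequences come from RefSeq on GRCr8. Alternatives were the 75th percentile in place of quantiles, normexp background correction (offset 50), the authors' log2 values, other filters on dim probes, outlier spots kept, no minimum fold, the mean of a gene's probes, a fit of 2 groups only, the methods' t-test, the replicate number or the slide as a block, and each array left out.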

Additional observations from a re-analysis of the deposited data

Results flagged for a closer look

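By the direct limma test of HSC+TBI against TBI, the change from control differed between the irradiated groups for 3 of the genes followed. This count takes the brightest tested probe of each gene, and 0.796% of all tested probes were called in that test. A second probe of Nfkb2 and another of Ptprc were called in it too, as given above. For Ccl2 the change was lower in HSC+TBI by -1.29 on the log2 scale and for Ccl3 by -2.14 (adjusted p = 0.0270 and 0.0404). For Cd2, a T and NK cell marker, it was 2.47 higher (adjusted p = 0.0306). Cd2 passed the filter on dim probes through the control arrays alone. It was not well above background on any TBI array and was so on 1 of 3 HSC+TBI arrays, so the size of this difference is uncertain and no bound is given.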

How the results depend on the processing

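The difference of each chemokine in each comparison was recomputed under 22 settings, where a probe could be measured. Of 657 values, 581 kept their direction and call, 44 lost the call, 25 gained one and 7 changed sign. All 7 concerned TBI against control and differences without a call: Cxcl1 became 0.038 with a 75th percentile shift, 0.015 with the authors' values and 0.20 to 0.45 without control rat 2, control rat 3 or TBI rat 1 (range over left-out arrays -0.61 to 0.45). Cxcl9 became 0.15 without control rat 2 (range -0.49 to 0.15), and Ccl5 -0.036 without TBI rat 2 (range -0.036 to 0.82). The cause was not tested. Percentages here are all probes called in either direction under the same setting, for comparison with 0.796% as reported for HSC+TBI against TBI. HSC+TBI against TBI had 0 chemokines called with normexp correction (0.0237%), with no filter on dim probes (0.266%), with only the 2 groups compared in the fit (0.193%) or with the methods' t-test after adjustment (0.00788%). It had 1 among the 9 chemokines above background on all 9 arrays (0.184%), and 6 by the methods' t-test without adjustment (5.38%). After adjustment that t-test called 0 in TBI against control (0.572%) and 0 in HSC+TBI against control (0.394%), and the analysis of variance 0 among the 3 groups (0.217%). Without a filter on dim probes, 3 differed among the 3 groups (3.43%). With slide as a random block, whose estimated correlation was negative (-0.33), 3 were called in TBI against control (17.8%), 9 in HSC+TBI against TBI (8.89%), and 10 among the 3 groups (48.7%). HSC+TBI against control had 4 to 7 called in the other settings that kept all arrays. Leaving out 1 array gave 0 to 1 called in TBI against control, 2 to 6 in HSC+TBI against control, 0 to 6 in HSC+TBI against TBI and 2 to 7 among the 3 groups. Replicate numbers are shared between groups, but the deviations of same-numbered samples correlated at -0.14 to 0.19, so they were not taken as pairs, although each TBI rat correlated best with its own number among the controls. With the replicate number as a block, 2 chemokines were called in TBI against control (Cxcl2 and Cxcl10), 5 in HSC+TBI against control (Cxcl1 gained, Ccl7 lost), 3 in HSC+TBI against TBI (Cxcl1 gained) and 6 among the 3 groups. Signal close to background limits Ccl7, the second Cx3cl1 probe and most receptors.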
